A study of Mus musculus with 458 samples.

Results

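Gna15, which encodes an alpha subunit of G proteins found in blood cells, was set beside 9 other genes of heterotrimeric G protein signalling: Gnaq, Gna13, Gnai2, Gnai3, Gnas, Gnb1, Gng2, Gng11 and Rgs18. These 10 genes, of 22645 in the expression table, were chosen by name with Gna15 already known to be low in 1 class of cells. The level of Gna15 and the share of cells that held it are therefore described here without a test, and the tests concern the other 9. The question was whether the loss of Gna15 in that class was matched by a change of the other subunits.

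The cells were haematopoietic stem cells (HSCs) of C57BL/6 mice, sorted singly as LSK CD150+CD48-CD45.2+ from the marrow of animals that had each received a single Vwf+ HSC. The patterns of reconstitution over 16 weeks were compared: platelets alone (PLT, 177 cells), platelets with erythroid and myeloid cells (PEM, 118 cells) and many lineages (MUL, 163 cells, called balanced in the authors' cell table). All groups descend from Vwf+ HSCs, the donor cells of a mouse come from 1 transplanted cell, and there were 2 mice per group, so each mouse stands for 1 clone. No source used here gives the ages of the animals. The mice are numbered within a group: PLT mice 1 and 2 gave 93 and 84 cells, PEM mice 1 and 2 gave 93 and 25, and MUL mice 1 and 2 gave 78 and 85. The cell names of both MUL mice begin with the same code and those of each other mouse with a code of its own. What the code stands for is not stated, and it cannot be told apart from the group. PLT mouse 2 and PEM mouse 2 were recorded as female and the others as male.

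A heterotrimeric G protein consists of an alpha subunit that binds GDP or GTP and a dimer of a beta and a gamma subunit. An activated receptor makes the alpha subunit exchange GDP for GTP, after which alpha and the beta-gamma dimer act on enzymes and channels, until the alpha subunit hydrolyses its GTP. RGS proteins speed up that hydrolysis. Alpha subunits fall into classes by what they act on: the Gq class (Gnaq, Gna11, Gna14, Gna15) activates phospholipase C beta, the Gi class (Gnai2, Gnai3) inhibits adenylyl cyclase, the Gs class (Gnas) stimulates it, and the G12 class (Gna13) acts on the cytoskeleton. The product of Gna15 is known for coupling to a wide range of receptors and for its restriction to blood cells. In platelets, Gnaq, Gna13 and Gnai2 carry the signals of thrombin, thromboxane and ADP.

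Gna15 lies on chromosome 10 of mm10, from 81502306 to 81524225 on the minus strand, and shares no exon bases with another gene in GENCODE. Its relative Gna11 is the neighbour on the same strand, 4499 bases away. RefSeq tables on GRCm38.p6 held a promoter for 7 of the 10 genes. The 250 bases before the start are shown for Gna15 and for Gng2, the 2 members with the most negative differences between PLT and MUL mice, for Gnaq, the closest relative of Gna15 among the members, and for Gnb1, the member seen in nearly every cell. Capitals mark each CG pair, and each line reads 5′ to 3′ on the strand of the gene. The windows are chr10:81524226-81524475 (minus strand), chr14:19976694-19976943 (minus strand), chr19:16132434-16132683 (plus strand) and chr4:155491111-155491360 (plus strand).
Gna15: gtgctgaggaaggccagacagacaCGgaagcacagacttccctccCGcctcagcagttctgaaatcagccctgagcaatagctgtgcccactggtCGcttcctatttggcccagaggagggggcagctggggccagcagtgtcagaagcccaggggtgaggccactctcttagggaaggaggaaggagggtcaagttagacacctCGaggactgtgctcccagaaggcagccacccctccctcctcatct
Gng2: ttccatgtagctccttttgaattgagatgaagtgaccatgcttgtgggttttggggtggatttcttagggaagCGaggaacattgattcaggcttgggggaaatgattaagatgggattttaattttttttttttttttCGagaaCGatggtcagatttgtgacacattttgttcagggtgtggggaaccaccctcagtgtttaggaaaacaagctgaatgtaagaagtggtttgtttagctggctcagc
Gnaq: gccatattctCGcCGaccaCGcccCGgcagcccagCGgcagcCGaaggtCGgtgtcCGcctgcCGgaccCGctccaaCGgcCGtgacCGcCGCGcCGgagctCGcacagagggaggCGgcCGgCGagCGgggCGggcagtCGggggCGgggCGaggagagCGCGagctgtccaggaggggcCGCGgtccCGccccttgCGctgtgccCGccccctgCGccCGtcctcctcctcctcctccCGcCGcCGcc
Gnb1: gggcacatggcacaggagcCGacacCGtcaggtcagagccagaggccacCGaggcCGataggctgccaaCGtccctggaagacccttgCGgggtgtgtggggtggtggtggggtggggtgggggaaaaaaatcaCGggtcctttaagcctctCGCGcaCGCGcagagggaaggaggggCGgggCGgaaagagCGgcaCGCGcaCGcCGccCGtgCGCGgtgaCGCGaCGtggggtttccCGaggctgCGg
The Gna15 window held 4 CG pairs and the Gng2 window 3, against 37 for Gnaq and 26 for Gnb1. The median of 27018 promoters was 6, and 44.5% of them held as few CG pairs as Gna15 or fewer. Among the 3 further members with a promoter, Gna13 had 33, Gnai3 had 18 and the 4 listed starts of Gnas had 14 to 29. Gna15 and Gng2 were thus the 2 with fewer pairs than the median. The Gng2 window precedes the RefSeq start, which lies inside the gene as GENCODE draws it (to 19977627 on chromosome 14). It is therefore not the window before the GENCODE start. Nor is the Gnaq window, which ends at 16132683 on chromosome 19, short of the GENCODE start at 16132831. GGAA, the core bound by ETS factors, was found 6 times each in the Gna15 and Gng2 windows on both strands together. Gnai3 and Gnb1 held it 5 times each, Gna13 held it 1 time, Gnaq 0 times and the Gnas starts 0 to 2 times. Of all promoters, 93.4% held at least 1. GATAA, the core bound by GATA factors, was found in no listed window of the 7 genes on either strand, and 23% of promoters held it. Such matches describe the letters of a window only.

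Mapped reads per cell ran from 1.3 to 17.3 M (mega), with a median of 4.9 M over all cells and mouse medians of 4.28 to 5.32 M. No pair of cells held identical values. The median number of genes detected per cell, by the authors' count, was 1869 and 2596 in PLT mice, 3186 and 2752 in PEM mice and 2210 and 2553 in MUL mice. All 10 HSC markers examined were present in every mouse, and at least 3 of them were at 1 RPKM or more in 40.9% and 44% of PLT cells, 90.3% and 68% of PEM cells and 48.7% and 77.6% of MUL cells. RPKM divides the reads of a gene by its length and by the size of the library, so levels of different genes can be compared. Neutrophil markers were uneven, with a summed mean of 2929 and 154 RPKM in PLT mice, 33.5 and 15103 in PEM mice and 92.6 and 988 in MUL mice. These sums rest on few cells: 1 cell of PEM mouse 2 had 232885 RPKM of S100a8, whose mean over the 25 cells was 9322, and 1 cell of PLT mouse 1 had 168501, with a mean of 1822 over 93 cells. Elane and Mpo, which define neutrophil precursors, were listed at 0 in all 6 mice. The summed megakaryocyte and platelet markers were also highest in PEM mouse 2, at 1520 RPKM, against 74.6 to 717 in the other mice. Most of that sum in PEM mouse 2 was a single gene, Pf4, at 1382 RPKM. Pf4 had 19.4 to 633 RPKM in the other mice.

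Gna15 was nearly missing from PLT cells and present in 22.4% to 33.3% of the cells of each PEM and MUL mouse. At 1 RPKM or more PLT mice had it in 0 of 93 and 3 of 84 cells, PEM mice in 31 of 93 and 7 of 25, and MUL mice in 20 of 78 and 19 of 85. As shares these were 0% and 3.57% in PLT, 33.3% and 28% in PEM, and 25.6% and 22.4% in MUL mice. The exact 95% intervals, which cover counting error only, reached 3.89% and 10.1% in PLT mice and began at 23.9% and 12.1% in PEM mice and at 16.4% and 14% in MUL mice. By the simpler rule of 3 counts over the total, 0 of 93 cells allows a share of up to 3.23%; the 3.89% above is the exact two-sided limit for the same cells.

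**Figure D1:**
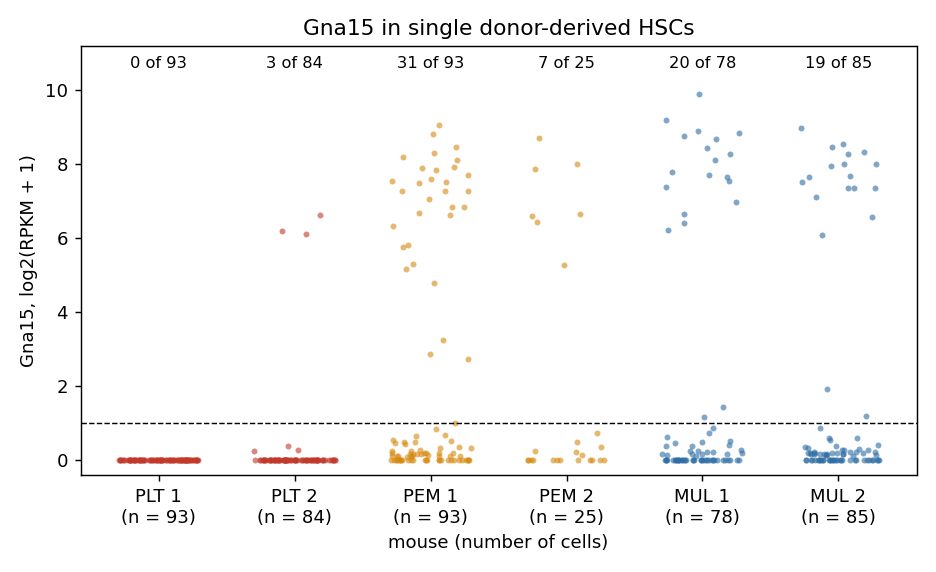
Gna15 in each cell, as log2(RPKM + 1) on the vertical axis, for the cells of each mouse (points; PLT, PEM and MUL mice from left to right; sideways position within a mouse is random). The dashed line is 1 RPKM, and the numbers above give the cells at or above it: 0 and 3 in PLT mice, 31 and 7 in PEM mice, 20 and 19 in MUL mice.

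The cells that held Gna15 mostly held a lot of it, as the plot of single cells shows. Of the 80 cells at 1 RPKM or more, 76 were at 5 RPKM or more, and the lowest had 1.24 RPKM. A further 98 cells had traces, the highest at 0.996 RPKM, and 280 cells were listed at 0. Even the traces were scarce in PLT: 0 and 3 cells, against 35 and 6 in PEM mice and 21 and 33 in MUL mice. The 3 cells of PLT mouse 2 at 1 RPKM or more had a median of 73 RPKM and a highest value of 98.8. The median among such cells was 155 and 101 RPKM in PEM mice and 214 and 199 in MUL mice, so the few PLT cells were also below the medians of the other 4 mice. With 3 cells in 1 mouse, the level among Gna15-holding PLT cells rests on very little.

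Averaged over all cells of a mouse, Gna15 had 0 and 2.87 RPKM in PLT mice, 56.3 and 49.4 in PEM mice, and 72.1 and 47.2 in MUL mice. The group means were 1.43 ± 2.03, 52.8 ± 4.85 and 59.7 ± 17.6 RPKM (PLT, PEM and MUL, SD, n = 2 mice each). Both PLT mice lay far below the other 4, while the PEM and MUL mice overlapped. On the scale of log2(mean RPKM + 1), on which a fold change understates the change of low genes, PLT minus MUL was -4.92 (SE 0.73), PLT minus PEM was -4.77 (SE 0.73) and PEM minus MUL was -0.14 (SE 0.73). From highest to lowest the order of mice was MUL 1, PEM 1, PEM 2, MUL 2, PLT 2 and PLT 1, and only the step between MUL 2 and PLT 2 was larger than the distances between mice of 1 group.

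PLT cells had the lowest shares in both sets of wells that the cell names mark for a mouse, called plates here, and in subsets of the cells. PLT mouse 1 had 0 of 47 and 0 of 46 cells at 1 RPKM or more on its plates, and PLT mouse 2 had 3 of 43 and 0 of 41. On the plates of PEM mouse 1 there were 15 of 46 and 16 of 47, and on those of PEM mouse 2 there were 5 of 14 and 2 of 11. On the plates of MUL mouse 1 there were 13 of 43 and 7 of 35, and on those of MUL mouse 2 there were 11 of 45 and 8 of 40. Detected genes moved with Gna15: within a mouse, Spearman's rank correlation between them over cells was 0.32 in PLT mouse 2 (84 cells), 0.21 and 0.40 in PEM mice (93 and 25 cells) and 0.27 and 0.18 in MUL mice (78 and 85 cells). Among cells with 1800 to 3000 detected genes, the shares were 0% and 0% in PLT, 16.7% and 36.4% in PEM, and 24.5% and 24.2% in MUL mice. Another cut used markers of neutrophils, mature erythroid cells, macrophages and monocytes, B cells, and T and NK cells. It kept cells with fewer than 3 markers of each list above 0 RPKM, called cells without mature markers below. Megakaryocyte and platelet markers and mast cell and basophil markers were not used for it. Among the kept cells the shares were 0% and 3.28%, 38.5% and 36.4%, and 26.9% and 20% in the same order of mice. In both subsets the shares of PLT mice remained below those of the other 4 mice.

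Low RPKM values do not by themselves show expression in these libraries. Gngt1, a gamma subunit of rod photoreceptors that was singled out after its values were seen, was at 1 RPKM or more in 54.8% to 92.9% of the cells of each mouse, with a median of 1.95 to 2.94 RPKM among those cells. Gna15-holding cells had medians of 73 RPKM and above. Lower shares in PLT mice were also common among other genes. Among the 11337 genes tested, 22.1% had lower shares in both PLT mice than in both MUL mice, and 34.2% had lower shares in both PLT than in both PEM mice.

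**Figure D2:**
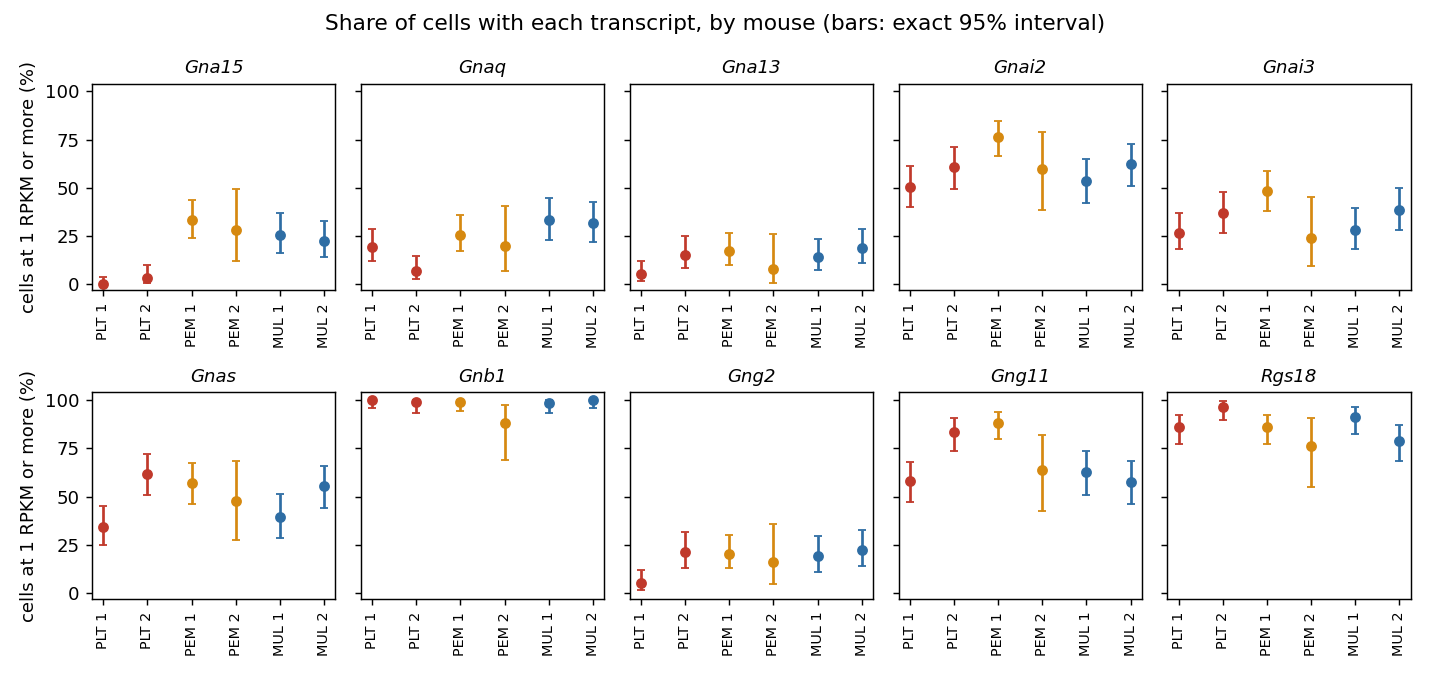
Percent of the cells of each mouse with 1 RPKM or more of each of the 10 genes (points), with exact 95% intervals (bars); PLT, PEM and MUL mice run from left to right. Gna15 is at 0% and 3.57% in PLT mice and at 22.4% to 33.3% in the other 4, while Gnb1 is at 88% or more in every mouse.

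None of the other 9 members differed between the groups past the threshold of 0.05 in limma after Benjamini-Hochberg adjustment over all 11337 genes. The smallest adjusted p of a member was 0.502 between PLT and MUL, 0.867 between PEM and MUL and 0.561 between PLT and PEM mice. Across all genes, 0.00882% passed in PLT against MUL, 0% in PEM against MUL and 0% in PLT against PEM, so few genes of any kind were called with 2 mice per group. At an unadjusted p under 0.05 there were 1, 2 and 1 of the 9 members in these contrasts, against 8.41%, 5.59% and 8.37% of all genes. The median log2 fold change of the 9 was 0.02 in PLT minus MUL, -0.78 in PEM minus MUL and 0.17 in PLT minus PEM, against -0.18, -0.04 and -0.13 over all genes. A p that misses the threshold does not show equal levels, and the pointwise 95% intervals below give what the data allow.

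**Figure D3:**
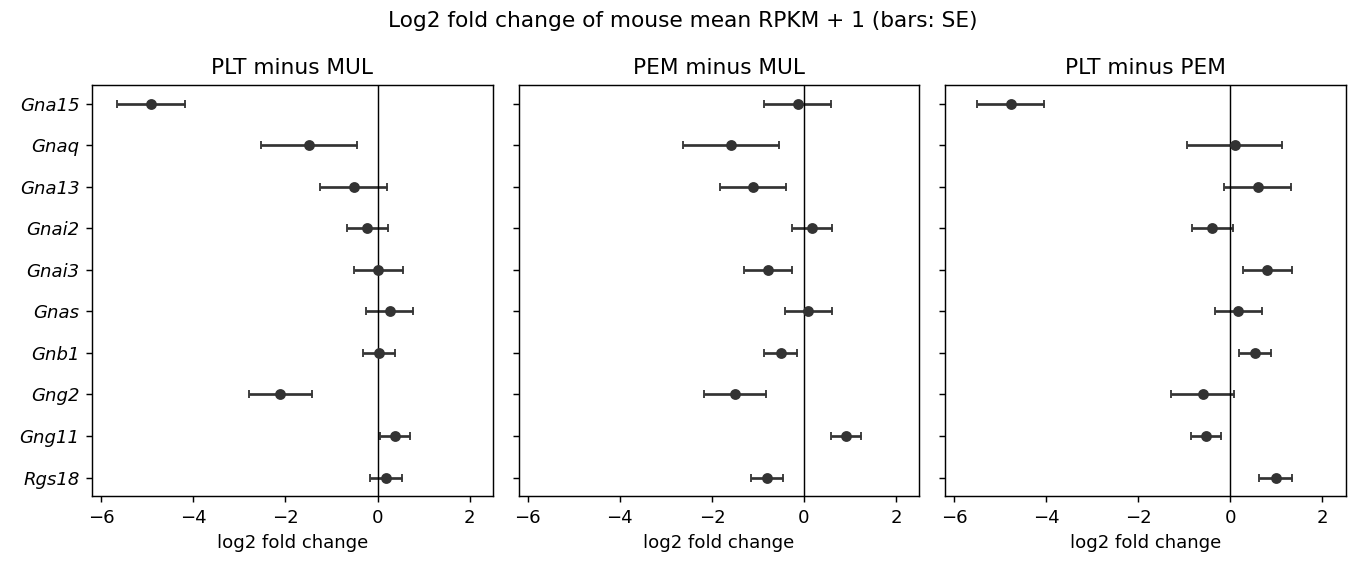
Log2 fold change of mouse mean RPKM + 1 for each gene (points) with its standard error (bars), in PLT against MUL, PEM against MUL and PLT against PEM mice. Gna15 stands at -4.92 and -4.77 in the contrasts with PLT, and Gng2 at -2.11 is the next most negative value for PLT minus MUL.

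Of the other Gq class alpha subunits, neither Gnaq nor Gna11 had both PLT mice above both MUL mice. Gnaq, the widely expressed member of the class that carries thrombin and thromboxane signals in platelets, had 23.8 and 2.01 RPKM in PLT mice, 12.4 and 3.89 in PEM mice, and 28 and 19.2 in MUL mice. The PLT mice differed from each other more than the groups did, and PLT minus MUL was -1.49 (95% interval -3.86 to 0.88, limma adjusted p = 0.747). Without PLT mouse 2 the difference was 0.03, and without PLT mouse 1 it was -3.01. The share of cells at 1 RPKM or more was lower in both PLT mice (19.4% and 7.14%) than in both PEM (25.8% and 20%) and both MUL mice (33.3% and 31.8%). Gna11, the other broadly expressed member, had 21.7 and 5.32 RPKM in PLT mice, 19.6 and 13.2 in PEM mice, and 7.76 and 22.4 in MUL mice, with overlap throughout (PLT minus MUL -0.26, limma adjusted p = 0.952). Gna14 was listed at or near 0 in every mouse.

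Summed over the class, Gq alpha transcripts came to 45.5 and 10.2 RPKM in PLT mice, 88.3 and 66.5 in PEM mice, and 108 and 88.8 in MUL mice. Gna15 made up 0% and 28.1% of that sum in PLT, 63.8% and 74.3% in PEM, and 66.9% and 53.1% in MUL mice. Without Gna15 the sums were 45.5 and 7.33 RPKM in PLT, 32 and 17.1 in PEM, and 35.8 and 41.7 in MUL mice, which overlapped. Cells with any Gq class alpha subunit at 1 RPKM or more made up 29% and 20.2% in PLT, 62.4% and 52% in PEM, and 55.1% and 52.9% in MUL mice. When Gna15 was not counted, these shares were 29% and 17.9%, 45.2% and 36%, and 41% and 43.5% in the same order. The shares of PLT mice thus stayed below the others even without Gna15, beside the 22.1% and 34.2% of all genes given above.

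**Figure D4:**
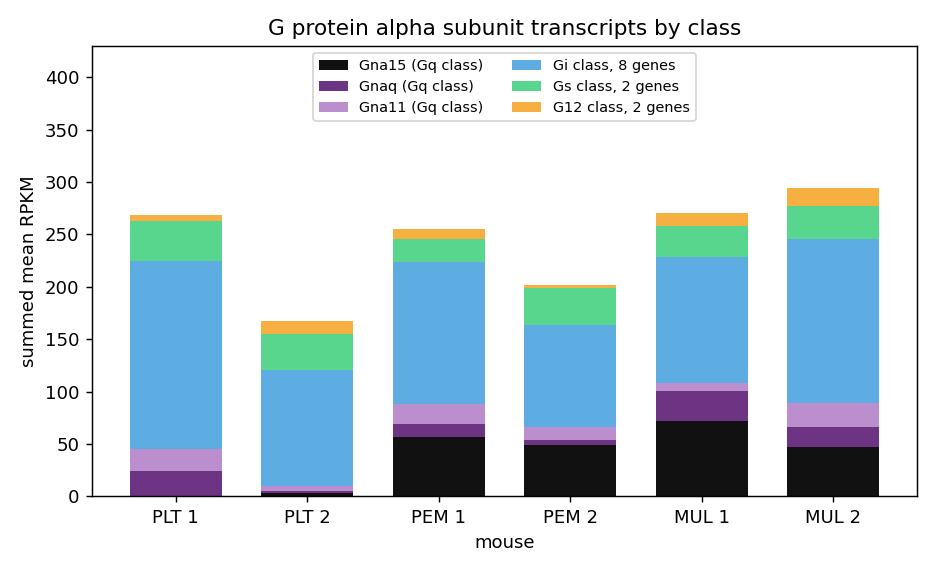
Mean RPKM of G protein alpha subunit genes, stacked by class, for each mouse (vertical axis: summed mean RPKM; PLT, PEM and MUL mice from left to right). The Gq class comes to 45.5 and 10.2 RPKM in PLT mice and to 66.5 or more in the other 4, and the Gi class makes the largest part in every mouse.

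The Gi class was the most abundant alpha class in every mouse, at 179 and 110 RPKM in PLT, 135 and 97 in PEM, and 121 and 157 in MUL mice. Gnai2, the main Gi subunit of leukocytes and of the platelet ADP receptor, had the smallest ratio of highest to lowest mouse among the alpha members, with 28.7 and 31.8 RPKM in PLT mice, 38.8 and 41 in PEM mice, and 34.7 and 36.1 in MUL mice. The groups did not overlap, but the steps were small (PLT minus MUL -0.22, 95% interval -1.22 to 0.78). Gnai3, a close relative of Gnai2, had 133 and 74.7 RPKM in PLT mice, 89.6 and 35.8 in PEM mice, and 84.3 and 114 in MUL mice, with overlap in every contrast. Its median among cells at 1 RPKM or more was 439 RPKM in PLT mouse 1, and between 161 and 302 RPKM in the other 5 mice.

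Gnas, which stimulates adenylyl cyclase, had 27.2 and 30.1 RPKM in PLT mice, 19.3 and 32.9 in PEM mice, and 24 and 23.4 in MUL mice. It was the one alpha subunit among the members with both PLT mice above both MUL mice, by 0.26 (95% interval -0.90 to 1.42, limma adjusted p = 0.923). Opposite-strand genes Nespas and Gm20721 cover 8.83% and 13.1% of its exon bases, and no source used here says whether counting used strand, so those reads cannot be told apart. Gna13, which is needed for the shape change of platelets, had 6.48 and 11.3 RPKM in PLT mice, 7.96 and 3.54 in PEM mice, and 12 and 13.5 in MUL mice (PLT minus MUL -0.52, 95% interval -2.17 to 1.13). Across all 16 alpha subunit genes of the table, those with both PLT mice above both MUL mice were Gnas and Gnaz, a Gi class gene at 2.68 and 1.22 RPKM in PLT, 1.91 and 0 in PEM, and 0 and 1.06 in MUL mice. Gnaz was singled out after its values were seen. Its PLT means rest on few cells: 1 of 93 and 4 of 84 were at 1 RPKM or more. Of these, only 1 cell per PLT mouse was at 10 RPKM or more, with 248 and 95.8 RPKM. The shares of Gnaz cells at 1 RPKM or more overlapped, at 1.08% and 4.76% in PLT and 0% and 2.35% in MUL mice.

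Gnb1, the main beta subunit, was the most widespread member, in 100% and 98.8% of PLT cells, 98.9% and 88% of PEM cells and 98.7% and 100% of MUL cells. Its level was 884 and 494 RPKM in PLT mice, 432 and 478 in PEM mice, and 758 and 556 in MUL mice. Both PEM mice were the lowest of the 6 (PEM minus MUL -0.51, 95% interval -1.32 to 0.29, limma adjusted p = 0.903). Gnb1 made up 78.4% to 97.2% of all beta subunit transcripts in the mice.

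Gng2 was the member other than Gna15 with the largest difference between PLT and MUL mice. This gamma subunit, a common partner of Gnb1, had 3.39 and 9.79 RPKM in PLT mice, 8.84 and 10.1 in PEM mice, and 28.1 and 29.2 in MUL mice. Both MUL mice stood above the other 4, whose values overlapped. PLT minus MUL was -2.11 (SE 0.68, 95% interval -3.66 to -0.56) with an unadjusted p of 0.0137 and a limma adjusted p of 0.502, and PEM minus MUL was -1.50 (SE 0.68, limma adjusted p = 0.867). The share of cells at 1 RPKM or more overlapped: it was 5.38% and 21.4% in PLT, 20.4% and 16% in PEM, and 19.2% and 22.4% in MUL mice. The share of cells above 0 was 15.1% and 34.5% in PLT, 39.8% and 28% in PEM, and 47.4% and 58.8% in MUL mice, with both MUL mice highest. The median among the cells at 1 RPKM or more was 24.5 and 23.4 RPKM in PLT, 35.7 and 56.5 in PEM, and 42.2 and 90.1 in MUL mice, from as few as 5 cells in PLT mouse 1 and 4 in PEM mouse 2, and PEM and MUL overlapped. The upper quartile of the same cells was 65.4 and 74.2 RPKM in PLT, 66.6 and 83.3 in PEM, and 259 and 185 in MUL mice. Both MUL mice share a code in their cell names, and a lincRNA on the opposite strand, Gm48283, covers 20.4% of the exon bases of Gng2.

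Gng11, a gamma subunit abundant in platelets, had 245 and 269 RPKM in PLT mice, 322 and 429 in PEM mice, and 223 and 174 in MUL mice. These means did not overlap between groups, with PEM highest and MUL lowest. PEM minus MUL was 0.91 (95% interval 0.18 to 1.64, unadjusted p = 0.0205, limma adjusted p = 0.867) and PLT minus MUL was 0.38 (limma adjusted p = 0.794). Megakaryocyte and platelet markers, summed, were 192 and 717 RPKM in PLT mice, 550 and 1520 in PEM mice, and 242 and 74.6 in MUL. Of these sums Pf4 gave 133 and 633, 419 and 1382, and 174 and 19.4 RPKM in the same order. The part of these markers in the Gng11 values was not tested. Single PEM cells reached 3784 and 5091 RPKM of Gng11, while the median among cells at 1 RPKM or more was highest in PLT mice: 307 and 292 RPKM, against 224 and 289 in PEM and 213 and 264 in MUL mice.

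Rgs18, an RGS protein of megakaryocytes and platelets that limits Gi and Gq signals, was, with Gnb1, one of the 2 most abundant members. It had 686 and 882 RPKM in PLT mice, 351 and 439 in PEM mice, and 901 and 523 in MUL mice. Both PEM mice were the lowest of the 6. PLT minus PEM was 0.98 (95% interval 0.19 to 1.78, unadjusted p = 0.0205, limma adjusted p = 0.561) and PEM minus MUL was -0.80 (95% interval -1.60 to -0.01, unadjusted p = 0.0469, limma adjusted p = 0.867). PEM minus MUL was -0.41 without MUL mouse 1 and -1.20 without MUL mouse 2. The median among cells at 1 RPKM or more was 678 and 678 RPKM in PLT, 307 and 426 in PEM, and 801 and 614 in MUL mice, so PEM cells also held less each.

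Counted over the 9 members other than Gna15, mouse means were lower without overlap for 3 and higher for 2 in PLT minus MUL, where 24.9% and 14.8% of all genes did so. For PEM minus MUL 5 were lower and 2 higher, against 18.3% and 17.5% of all genes. For PLT minus PEM 2 were lower and 2 higher, against 21.9% and 14.1%. For shares of cells, 1 member was lower and 0 were higher in PLT minus MUL, against 22.1% and 7.32% of all genes, and 1 was lower and 1 higher in PEM minus MUL, against 6% and 36.7%. In PLT minus PEM 1 member had a lower share and 0 a higher one, against 34.2% and 2.84%. The contrasts share mice and are not independent of each other. The direction for PLT minus MUL depended on scaling in 3 members: Gnai3 at 0.02, Gnb1 at 0.03 and Rgs18 at 0.18 became -0.01, -0.31 and -0.18 after quantile normalization of the mouse means.

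The wider pathway was described with 8 lists of 123 further genes, of which 77 passed the filter on low values and were tested. None passed adjustment in limma in any contrast. At an unadjusted p under 0.05, 10 of the 77 were found for PLT minus MUL (9 lower and 1 higher), where 5.96% of all genes were lower and 2.44% higher at that p. There were 5 for PEM minus MUL (3 lower and 2 higher, against 2.79% and 2.8% of all genes) and 5 for PLT minus PEM (5 lower and 0 higher, against 5.88% and 2.49%). The median log2 fold change of the 77 was -0.28 in PLT minus MUL, 0.01 in PEM minus MUL and -0.51 in PLT minus PEM.

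Receptors held 7 of the 9 lower genes for PLT minus MUL, among 27 tested. At the same unadjusted p under 0.05, 5.96% of all genes were lower. Of the 7, Ccr1, C5ar1, Ptafr and F2rl2 rest on few cells: 3, 3, 9 and 13 over all mice were at 1 RPKM or more. C5ar1 averaged 1 RPKM or more in MUL mice only (4.68 and 3.25), so the filter kept it only because MUL was high. The count therefore does not show that receptors as a class were lower in PLT mice. F2rl3, a thrombin receptor that couples to Gq and was singled out after its values were seen, had 3.24 and 17.1 RPKM in PLT mice, 47.5 and 24.3 in PEM mice, and 50.9 and 36.3 in MUL mice. In F2rl3, PLT minus MUL was -2.33 (SE 0.75, limma adjusted p = 0.502), and it was -1.29 without PLT mouse 1 and -3.38 without PLT mouse 2. The lowest levels of F2rl3, like those of Gna15, were in PLT mice. Both PLT means lay below both MUL means in 12 of the 27 receptors and in 24.9% of all genes. They lay below both PEM means in 7 of the 27 receptors and in 21.9% of all genes. How many genes had both PLT means below all the other mice was not counted.

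F2r, another thrombin receptor gene, was highest in PEM (PEM minus MUL 1.21, limma adjusted p = 0.867). It had 21.1 and 27.8 RPKM in PLT mice, 45.9 and 55.8 in PEM mice, and 19.7 and 23.2 in MUL mice. P2ry14, a receptor for UDP-sugars that acts through Gi, had 49.8 and 28.9 RPKM in PLT mice, 21.5 and 15.5 in PEM mice, and 34.6 and 54 in MUL mice. C5ar1, the complement C5a receptor, was at 0 and 0.648 RPKM in PLT, 0 and 0.00201 in PEM, and 4.68 and 3.25 in MUL mice. Ptafr, the receptor of platelet-activating factor, had 0.784 and 0.00132 RPKM in PLT, 2.79 and 0 in PEM, and 5.21 and 18.6 in MUL mice. The means of C5ar1 and Ptafr rest on very few cells. Even in MUL mice, a mean of 1.23% and 4.17% of cells were at 1 RPKM or more of C5ar1 and Ptafr. The most abundant receptors of the list were Gpr56, an adhesion receptor, at 82.6 and 52.4 RPKM in PLT, 210 and 123 in PEM, and 93.7 and 180 in MUL mice, and the lysophosphatidic acid receptor gene Lpar6, at 45.4 to 119 RPKM without order by group.

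Of the other RGS genes, 7 of 8 tested had negative values for PLT minus MUL, and 1 of them had an unadjusted p under 0.05. Negative values were also the rule over all genes, in 6612 of 11337, and the median was -0.86 for the 8 RGS genes and -0.18 for all genes. That gene was Rgs1, known for limiting chemokine receptor signals in lymphocytes. It had 83.3 and 211 RPKM in PLT mice, 250 and 479 in PEM mice, and 433 and 426 in MUL mice (PLT minus MUL -1.69, SE 0.49, limma adjusted p = 0.48). Without PLT mouse 1 the difference was -1.02. It was present at 1 RPKM or more in 10.8% and 40.5% of PLT cells, 60.2% and 52% of PEM cells, and 53.8% and 68.2% of MUL cells. Rgs1 and Rgs18 thus differed: Rgs18 was lowest in PEM and Rgs1 lowest in PLT mice. Rgs19, which acts on Gi class subunits, had 45.5 and 88.7 RPKM in PLT, 119 and 107 in PEM, and 122 and 59.1 in MUL mice.

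Among other subunits, Gng5 and Gng10 were the most abundant gamma genes of the list. Gng5 had 346 and 625 RPKM in PLT mice, 543 and 389 in PEM mice, and 503 and 344 in MUL mice, and Gng10 had 113 to 251 RPKM, both without order by group. Gngt2, a gamma subunit of cone photoreceptors also seen in leukocytes, had 22.1 and 39.4 RPKM in PLT, 27 and 186 in PEM, and 20.9 and 7.32 in MUL mice, with its highest mean in PEM mouse 2, where 1 of the 25 cells had 3749 RPKM. PEM minus MUL was 2.42 for Gngt2 and 1.05 without PEM mouse 2. That mouse also had the highest sum of neutrophil markers, whose part in Gngt2 was not tested. The beta subunits Gnb2 and Gnb4 had their highest levels in PEM mouse 2 as well, at 54.7 and 51.4 RPKM. Gnb4 was at 0.0116 RPKM in PLT mouse 1 and 19.8 in PLT mouse 2. Gnal, the second Gs class gene, had 10.7 and 4.77 RPKM in PLT, 3.07 and 1.97 in PEM, and 5.59 and 7.61 in MUL mice, and Gnat2, a Gi class gene of cone photoreceptors, had 1.83 to 20.2 RPKM over the mice.

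Of the 15 effector genes tested, Plcb4, a phospholipase C beta activated by the Gq class, had the smallest p among those higher in PLT. It had 9.44 and 7.8 RPKM in PLT mice, 5.67 and 3.31 in PEM mice, and 2.61 and 0.577 in MUL mice (PLT minus MUL 2.01, SE 0.80, unadjusted p = 0.036, limma adjusted p = 0.565). Prkaca, a catalytic subunit of protein kinase A, had 29.7 and 27.9 RPKM in PLT, 15.9 and 52.5 in PEM, and 18.6 and 9.04 in MUL mice. Prkar1a, its regulatory subunit and the most abundant effector gene of the list, had 136 and 109 RPKM in PLT, 163 and 157 in PEM, and 223 and 169 in MUL mice, a sequence without overlap. Prkacb, another catalytic subunit, lay between 31.6 and 47.2 RPKM. The receptor kinases Adrbk1 (7.9 to 31.7 RPKM) and Adrbk2 (4.72 to 14.4 RPKM) did not pass either. Nor did Pdcl (15.6 to 54.2 RPKM) and Pdcl3 (37.7 to 75.3 RPKM), from the list of chaperones and exchange regulators.

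The 5 tested genes whose levels over the 6 mice were most like those of Gna15 were Ppox, Ctss, Dgat1, Cd96 and Trib3. Likeness was measured as the root-mean-square difference of log2(mean RPKM + 1), centred over the mice, and was 0.67, 0.78, 0.84, 0.88 and 0.89, against a median of 2.39 over all tested genes. Ppox, an enzyme of haem synthesis, had 0 and 4.79 RPKM in PLT mice, 25.1 and 57 in PEM mice, and 32.2 and 28.5 in MUL mice. Cd96, a surface receptor of the immunoglobulin family, had 0 and 8.09 RPKM in PLT, 24.1 and 29.4 in PEM, and 28.1 and 25.2 in MUL mice. Ctss, a lysosomal protease, had 0.00551 and 4.23, then 28.4 and 77.8, then 24.8 and 58.7 RPKM in PLT, PEM and MUL mice. Dgat1, an enzyme of triglyceride synthesis, had 1.25 RPKM or less in both PLT mice and at least 10.1 in the other 4, and Trib3, a stress-induced pseudokinase, had 0.314 RPKM or less in PLT and at least 8.92 elsewhere. Among the members, Gng2 came closest to Gna15, at 1.76 and rank 562 of the tested genes.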

How the data were processed

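Cells were index sorted and SMARTer Ultra Low RNA libraries were made from each, according to the labels. The authors deposited RPKM per gene and cell, and TopHat, featureCounts and mm10 are named in the submitters' processing notes, with versions, gene lengths and read totals not given in the sources used here. Another deposited table holds, by its headers, each cell's count of mapped reads, its number of detected genes and its mitochondrial reads in percent. RPKM values are not counts, so no count model was fitted.

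Cells are not replicates: RPKM was averaged over all cells of each of the 6 mice, with no filter on cells and no doublet caller. Replicate numbers name mice and pair none. Genes were tested where 2 or more mice averaged 1 RPKM or more (11337 genes), as log2(mean RPKM + 1) with limma 3.58.1 in R 4.3.3 (1 mean per group, shared trended variance, 3 residual and 8.33 total degrees of freedom per gene). P-values were Benjamini-Hochberg adjusted over all genes, with a threshold of 0.05. They measure the spread between mice. With 2 mice against 2, the smallest p of an exact permutation test is 0.33, so shares of cells were not tested; their intervals are Clopper-Pearson. The fit was checked on simulated data with normal noise of the same size for every gene. That check does not cover noise that varies with the level of a gene.

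The 10 genes, the pathway lists and the marker lists were chosen with earlier results of these data known. Named pathway genes were, per list, the 2 highest and, per contrast and direction, the 2 with the smallest p, plus the 5 genes most like Gna15. Exceptions are stated, and 1 gene that the rule names is not reported here. Positions came from GENCODE M21 and promoters from RefSeq on GRCm38.p6, the build that mm10 names.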

Additional observations from a re-analysis of the deposited data

How the results depend on the processing

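The 9 members other than Gna15 gave 0 calls in each contrast under all 16 alternatives in limma, as did the 77 tested pathway genes, and the lowest adjusted p of a member was 0.36. With 2 mice per group, a count of 0 says little about stability. Where an alternative left a group with 1 mouse, that mouse was assumed to vary like the others. For Gna15, PLT minus MUL kept its direction throughout, but its size followed the scale: -6.74 with a pseudocount of 0.1, -2.59 with 10, -1.71 as a mean of log2 values over cells, and -5.89 in cells with 1800 to 3000 detected genes. Leaving out 1 mouse gave -5.89 (without PLT mouse 2) to -3.94 (without PLT mouse 1). The difference in the share of Gna15 cells between PLT and MUL mice, -22.2 percentage points at 1 RPKM, was -53.3 for any value above 0, and -19.8 at both 5 and 10 RPKM.

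Of 432 recomputed member values, 37 changed sign, in 15 of 27 results, and the cause was not tested. For PLT minus MUL these were Gna13 at 0.29 (1800 to 3000 detected genes), Gnai2 at 0.02 and Gnai3 at -0.25 (cells without mature markers), Gnai3 at -0.08 (mean of log2 values), Gnb1 at -0.18 and Rgs18 at -0.03 (plate 1), and Gnai3 at -0.01, Gnb1 at -0.31 and Rgs18 at -0.18 (quantile normalization). For PEM minus MUL they were Gnai2 at -0.03 (1800 to 3000 detected genes) and -0.09 (cells without mature markers), and Gnai2 at -0.58 and Gnas at -0.20 (plate 1). For PLT minus PEM they were Gng2 at 1.49 (1800 to 3000 detected genes); Gnaq at -0.36, Gnai2 at 0.11 and Gng11 at 0.21 (cells without mature markers); Gnaq at -0.25, Gna13 at -0.06, Gnai3 at -0.02 and Gnas at -0.08 (mean of log2 values); Gnaq at -1.05, Gnai2 at 0.36 and Gng11 at 0.02 (plate 1); and Gnas at -0.20 (plate 2). With 1 mouse left out, values crossed 0 for PLT minus MUL in Gnaq (-3.01 to 0.03), Gnai3 (-0.39 to 0.43), Gnb1 (-0.39 to 0.44) and Rgs18 (-0.21 to 0.57), for PEM minus MUL in Gnas (-0.28 to 0.46), and for PLT minus PEM in Gnaq (-1.43 to 1.62), Gnas (-0.20 to 0.54) and Gng2 (-1.25 to 0.04).

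Gng2 for PLT minus MUL ranged from -2.76 to -1.46 when 1 mouse was left out. Other values moved too, for example Gna13 (-0.88 to -0.16) and Gng11 (0.20 to 0.56) for PLT minus MUL and Gnb1 (-0.74 to -0.29) for PEM minus MUL. The pathway genes named for a small p, in the contrast that named them, and F2rl3 were recomputed by a choice made after seeing the data, and no value changed sign; the other named pathway genes were not recomputed. No paired analysis was possible because the mouse numbers only name animals and the sample labels name no litter or day. A later part of the cell names is the same in MUL mouse 2 and PEM mouse 1, and its meaning is not stated.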
